A study of Mus musculus with 12 samples.

Results

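Integrins are the receptors through which cells hold on to the extracellular matrix and to each other, and focal adhesion adaptors are the intracellular proteins that couple them to actin and to kinases. The genes described here are every protein-coding gene of the table whose symbol is Itga or Itgb with a number or with v, l, m, x, d or e, together with 15 adaptors fixed by name. They are 42 of the 16971 genes listed, of which 27 encode integrin subunits (18 α and 9 β) and 15 encode adaptors (the talins, kindlins, integrin-linked kinase and its partners, the focal adhesion kinases, vinculin, paxillin and zyxin). All 42 had the same coordinates in GENCODE M21 on GRCm38.

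The cells were GFP(+) sorts of the nonparenchymal liver fraction of Prom1CreERT2-nLacZ/+;Rosa26Lsl-GFP/+ mice that received tamoxifen at 6 weeks of age. The labels give the background as C57BL/6, and by the study's methods the knock-in line was C57BL/6N and the reporter line C57BL/6J. In these mice 1 copy of *Prom1* carries CreERT2, so tamoxifen marks the cells that use the *Prom1* promoter at that time, and GFP then stays on in their descendants. All mice received tamoxifen 7 days before surgery, the sham-operated day 0 group included. The groups were day 0, day 3 after bile duct ligation (BDL, which stops bile flow and scars the liver around the ducts) and day 14 after BDL, and poly(A) RNA was sequenced. The gate took any GFP(+) cell, which by the design is a cell that had used *Prom1* at labelling or its progeny. Whether cells or RNA from outside that lineage were also in the sorts was not tested. Fewer cells of a type cannot be told apart from less RNA per cell in these bulk samples. The sexes were mixed, with 1 male among the 3 day 0 mice, 2 among the 3 of BDL day 3 and 3 among the 4 of BDL day 14, so sex and group cannot be fully told apart.

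The deposited table gives 1 mean per group and gene, calculated by the authors from counts normalized by the upper quartile method, and no value per library. The labels list 12 libraries and the means were built from 10 of them, 3 each for day 0 and BDL day 3 and 4 for BDL day 14. The authors' own p-values and limits were not used, and no test between groups was run. Each level below is the authors' mean in normalized counts, 3 levels in a row stand for day 0, BDL day 3 and BDL day 14 in that order, and each log2 ratio is that of 2 such means. The standard error (SE) after a ratio is approximate. It rests on the spread between libraries, pooled over the groups, that the authors' group means and their geometric mean over all libraries imply. In simulated libraries the estimate had a median of 0.897 to 0.953 of the true spread. Those libraries had equal spread in all groups, no counting noise and no floor. The estimate was therefore not checked for genes with a mean at the floor or with unequal spread. A ratio was counted when it was above 1.5-fold either way, for genes with 10 or more normalized counts when all libraries were summed. Of the 42 genes 37 passed this minimum, and the other 5 were *Itga10*, *Itga11*, *Itgad*, *Itgb2l* and *Itgb6*. Both BDL groups were compared with the same day 0 libraries. Depth per library is unknown. A mean of up to 4 times the lowest mean of its group (0.512, 0.292 and 0.244) was read as the floor, and folds against it are bounds.

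Every integrin is a pair of 1 α and 1 β chain, and the α chain largely sets the ligand. Collagen is bound by α1, α2, α10 and α11, and laminin by α3, α6 and α7. The RGD motif of fibronectin and vitronectin is bound by α5, α8, αv and αIIb. The β2 chain is restricted to leukocytes, where it pairs with αL (LFA-1), αM (Mac-1), αX and αD. Talin and kindlin bind the β tail to switch the receptor on. Kindlin-1 is mainly epithelial, kindlin-2 is found in most adherent cells, and kindlin-3 is a blood cell protein. The parvins are split in a similar way, with γ-parvin in blood cells. In the liver, stellate cells, fibroblasts and endothelium carry collagen and laminin receptors, while macrophages carry the β2 pairs.

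Promoter windows in the RefSeq tables (GRCm38.p6, 300 bases around a start that RefSeq annotates) were given for 29 of the members. Of these, *Itga5*, *Itgam*, *Itgax* and *Parvg* were more than 1.5-fold above day 0 at both BDL days. The windows of the last 3 are shown, chosen as leukocyte genes with the same direction. The BDL day 3 ratio of *Itgam* and both ratios of *Itga5* did not pass 2 SE. Capitals mark GAGGAA and its reverse complement TTCCTC, the core of the site read by PU.1, a transcription factor of myeloid cells. The windows lie at chr7:128062390-128062689 for *Itgam*, chr7:128129300-128129599 for *Itgax* and chr15:84324470-84324769 for *Parvg*, all on the plus strand. Both RefSeq starts of *Parvg* lie inside the gene as GENCODE draws it.
Itgam: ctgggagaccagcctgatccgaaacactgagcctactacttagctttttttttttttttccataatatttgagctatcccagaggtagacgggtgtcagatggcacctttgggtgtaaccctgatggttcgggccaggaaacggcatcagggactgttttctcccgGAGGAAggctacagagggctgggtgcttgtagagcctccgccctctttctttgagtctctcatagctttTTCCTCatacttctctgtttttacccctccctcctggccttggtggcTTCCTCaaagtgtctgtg
Itgax: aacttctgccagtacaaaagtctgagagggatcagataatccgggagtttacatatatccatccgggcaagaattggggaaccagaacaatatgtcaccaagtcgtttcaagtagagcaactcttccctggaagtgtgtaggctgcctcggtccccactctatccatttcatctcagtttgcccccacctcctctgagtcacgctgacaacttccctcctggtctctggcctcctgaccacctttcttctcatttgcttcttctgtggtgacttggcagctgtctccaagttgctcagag
Parvg: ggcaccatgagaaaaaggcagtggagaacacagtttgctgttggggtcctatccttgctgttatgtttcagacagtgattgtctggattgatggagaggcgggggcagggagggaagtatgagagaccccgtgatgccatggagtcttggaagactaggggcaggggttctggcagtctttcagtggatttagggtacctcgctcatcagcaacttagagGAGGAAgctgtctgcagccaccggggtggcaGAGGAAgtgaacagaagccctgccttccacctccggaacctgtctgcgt
The *Itgam* window held 3 copies of the motif on either strand and that of *Parvg* held 2. None was found in the *Itgax* window or in a second start of *Parvg* at chr15:84325869-84326168. The window of *Itga5*, not shown, held 1 copy. Of all 32851 promoter windows 28.3% held the motif, and of the 35 windows of the members 13 (37.1%) did. These matches describe the letters of the window and no binding was measured here.

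Together the members held 0.232%, 0.357% and 0.365% of the summed means of the 3 groups. At BDL day 3, 9 of the 37 were above day 0 by more than 1.5-fold (24.3%, against 19.2% of the 12889 genes tested) and 16 were below it (43.2%, against 29.2%). By BDL day 14, 10 lay above day 0 (27.0%, against 21.2%) and 12 below (32.4%, against 28.8%). Between the BDL days the members were less evenly divided, with 19 higher at BDL day 14 (51.4%, against 21.2%) and 5 lower (13.5%, against 19.7%). When the ratio was also required to exceed 2 SE, 17 members passed at BDL day 3 against day 0 (background 26.4%), 10 at BDL day 14 against day 0 (background 30.0%) and 16 between the BDL days (background 21.9%). For the members the median log2 ratio to day 0 was -0.06 on BDL day 3 and 0.05 on BDL day 14, and between the BDL days it was 0.94. The last value depends on the genes kept, since it was 0.00 in the 27 members with a mean of at least 10 and 0.0323 in all 42. Over all genes tested these medians were -0.02, -0.04 and -0.00.

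**Figure D1:**
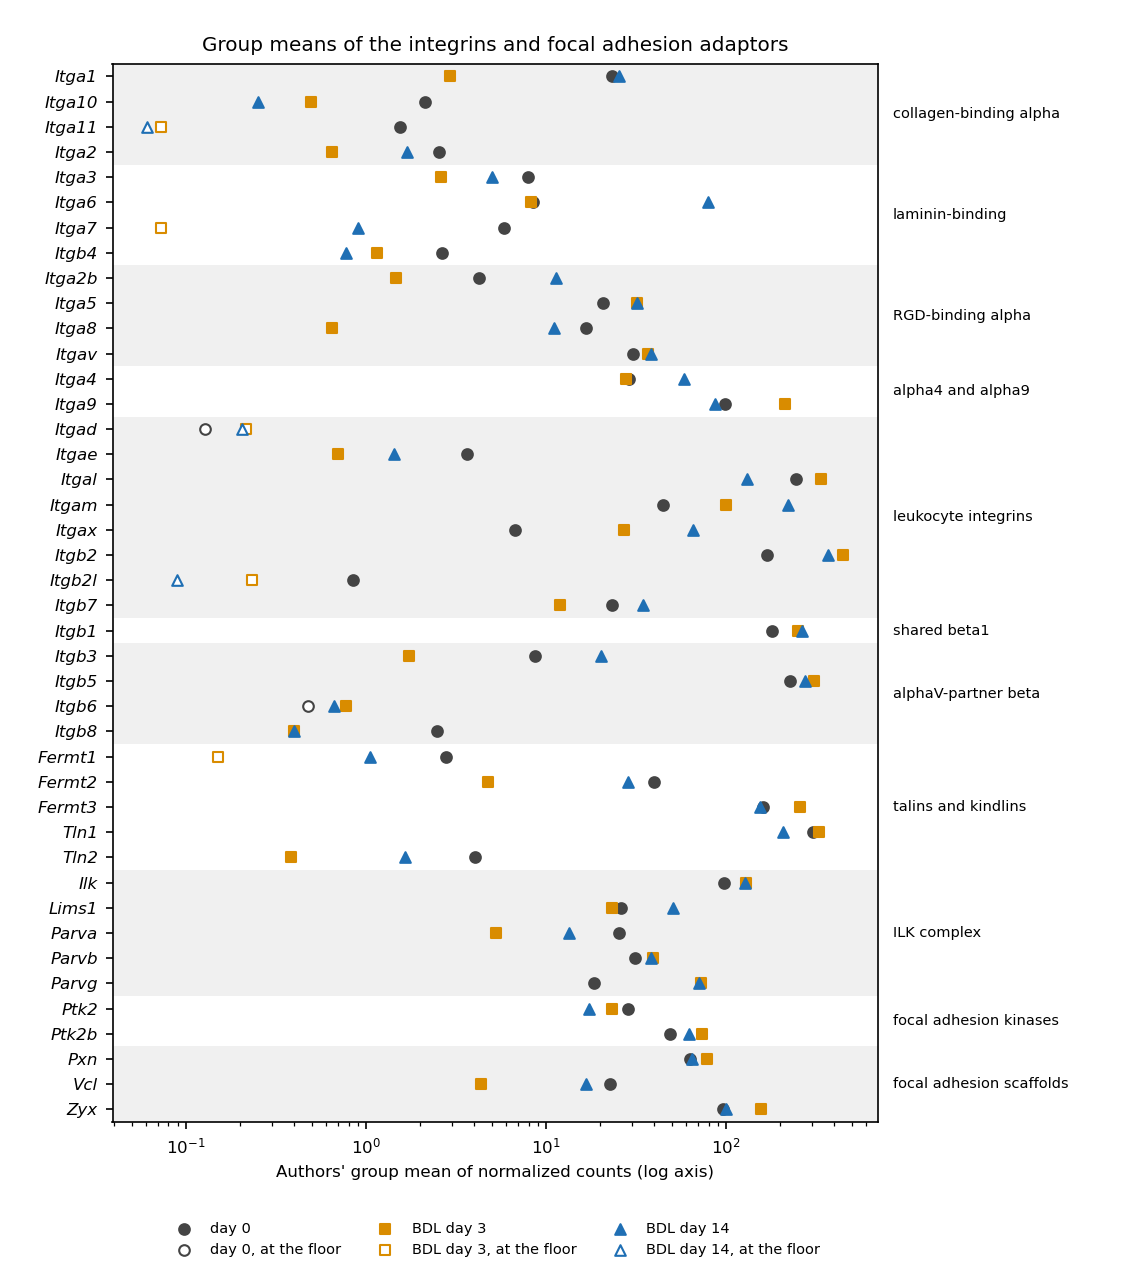
Authors' group means of normalized counts of the 42 genes on a log axis, grouped by role, with circles for day 0, squares for BDL day 3 and triangles for BDL day 14; open symbols are means at the floor. Itgb2, Itgal, Itgb5, Itgb1, Fermt3 and Tln1 lie above 100 in every group, while Itga1, Itga8, Fermt2 and Vcl have their BDL day 3 square far to the left of the other symbols.

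A single pattern was shared by members of several roles. In 14 of the 37 (37.8%) the BDL day 3 mean was below both other groups by more than 1.5-fold, and 13.4% of all genes tested had this shape. They were 9 of 22 integrin subunits (*Itga1*, *Itga2*, *Itga3*, *Itga7*, *Itga2b*, *Itga8*, *Itgae*, *Itgb7* and *Itgb3*) and 5 of 15 adaptors (*Fermt1*, *Fermt2*, *Tln2*, *Parva* and *Vcl*). Of the 14, *Itga2*, *Itga3*, *Itga7*, *Itga8*, *Itga2b*, *Itgae*, *Fermt1* and *Tln2* had a mean under 10 over all libraries. The share of all genes was not matched for abundance. With both differences also over 2 SE, 9 members (24.3%) and 5.51% of all genes had this shape. The 9 were *Itga1*, *Itga7*, *Itga8*, *Itgb7*, *Itgb3*, *Fermt1*, *Fermt2*, *Parva* and *Vcl*. For *Itga7* and *Fermt1*, at the floor on BDL day 3, the SE was not checked by the simulation. By the 1.5-fold limit alone, 5 members (13.5%, against 10.8% of all genes) were above day 0 at both BDL days, and these were *Itga5*, *Itgam*, *Itgax*, *Itgb2* and *Parvg*. With both differences also over 2 SE there were 3, *Itgax*, *Itgb2* and *Parvg*. A further 6 passed 1.5-fold in no comparison (*Itgav*, *Itgb1*, *Itgb5*, *Ilk*, *Parvb* and *Pxn*).

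**Figure D2:**
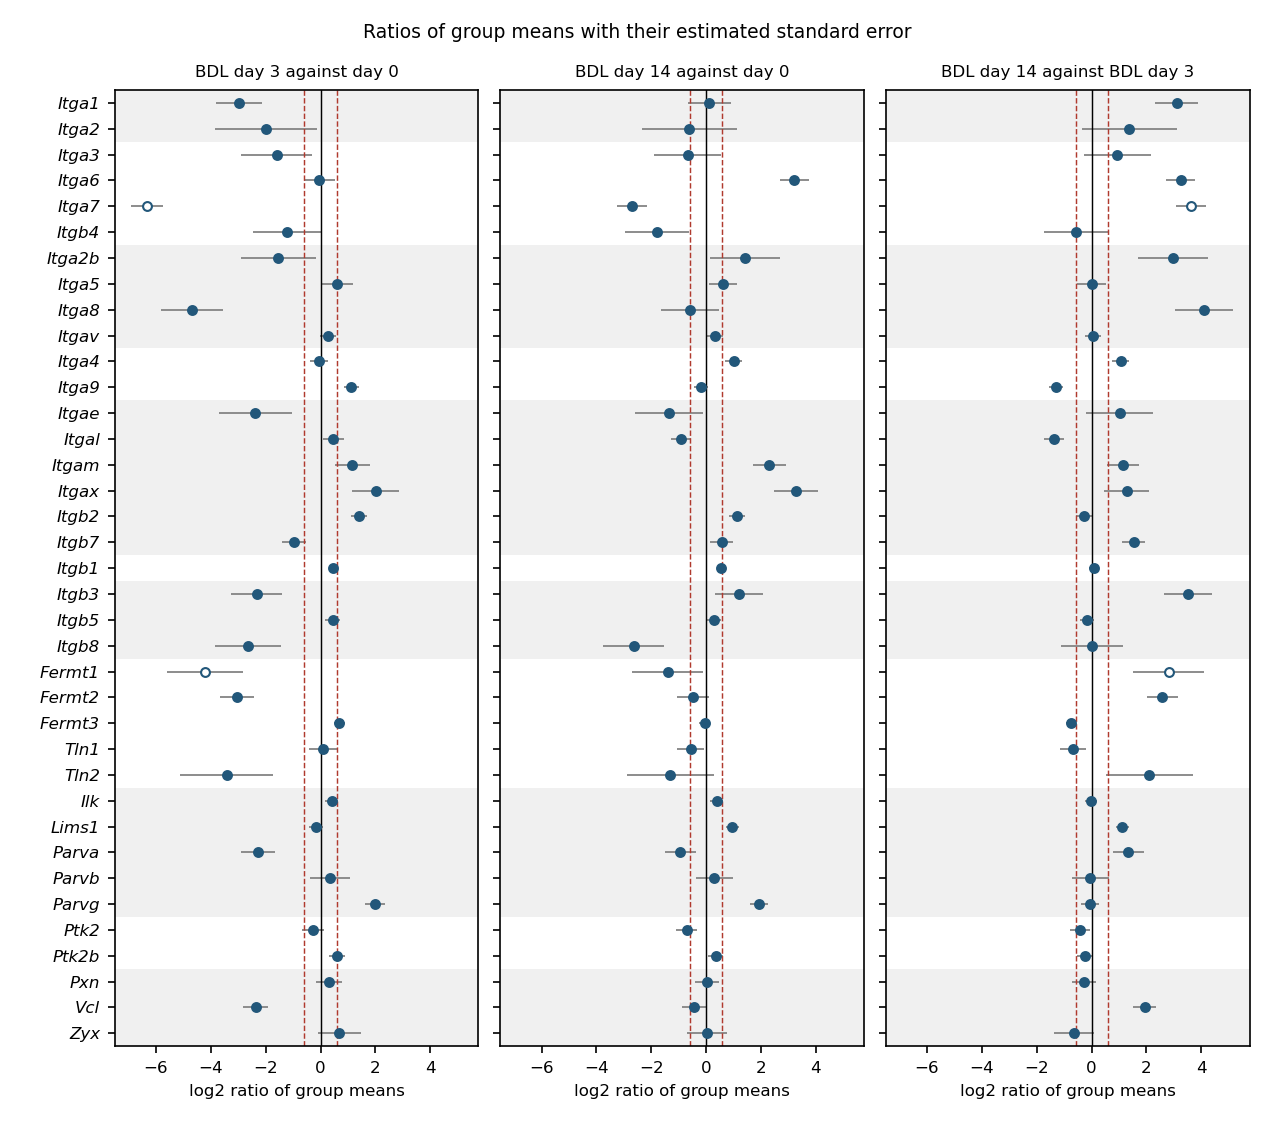
Log2 ratio of the authors' group means of the 37 members tested, in the 3 comparisons, with bars of 1 estimated SE; dashed lines mark 1.5-fold and open circles are ratios with 1 mean at the floor. In the panel of BDL day 14 against BDL day 3, 19 members lie right of the upper dashed line and 5 left of the lower one.

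Markers of several cell types differed between the groups too. Of 14 mesenchymal markers all 14 were lower at BDL day 3 than at day 0, and their summed means were 1608, 40.0 and 178. In 13 of them a day 0 library stood highest, with 34.1% to 54.8% of the group's signal. Without each gene's highest library the day 0 sum was 1312, and all 14 were still lower at BDL day 3. Of 10 sinusoidal endothelial markers 8 were lower at BDL day 3 and 8 were higher at BDL day 14 than at BDL day 3, with sums of 1387, 749 and 1564. The macrophage list summed to 5084, 9175 and 14120, and 6 of its 8 genes were higher at BDL day 3 than at day 0 and 1, *Lyz2*, at BDL day 14. Without *Lyz2* (lysozyme) the sums were 2804, 4615 and 2918. Of 9 markers of recruited macrophages 8 were higher at BDL day 14, and their sums were 178, 694 and 4096. In 7 of the 9 a BDL day 14 library stood highest, with 33.4% to 66.9% of the group's signal. Without each gene's highest library the BDL day 14 sum was 3267, and 8 were still higher than at day 0. The 8 Kupffer cell markers, of resident liver macrophages, summed to 10360, 22570 and 1452, with 6 higher at BDL day 3 and all 8 lower at BDL day 14 than at day 0. The 14 cholangiocyte markers, which include *Prom1*, were low throughout, with sums of 201, 154 and 170. Without *Krt8* the sums were 144, 93.8 and 109. Of the 11 tested, 7 were lower and 0 higher at BDL day 3 than at day 0. At BDL day 14, 7 were lower and 1 higher than at day 0. In each of these comparisons 3 passed 2 SE. *Prom1* itself was listed with 6.66, 0.956 and 1.76, and *Krt19* of bile duct cells at 21.5, 12.7 and 14.3. Hepatocyte markers summed to 3719, 1036 and 440, with 8 of 10 lower at BDL day 3 and all 10 at BDL day 14 than at day 0, and erythroid markers to 74540, 7729 and 4483, with 6 of 6 lower on both BDL days. A day 0 library stood highest in 8 of the 10 hepatocyte markers, with 35.25% to 56.0% of the group's signal. The same held for all 6 erythroid markers, with 49.6% to 76.7%. Without each gene's highest library the day 0 sums were 3521 and 52020, and the counts of lower genes were the same. *Csf1r*, the macrophage growth factor receptor, was at 1360, 2140 and 1230. The part of these shifts in cell type markers in the levels of the integrins and adaptors was not tested.

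Among the collagen-binding α chains, *Itga1* (chr13:114953096-115101964) went from 23.2 in the day 0 group to 2.94 on BDL day 3 and back to 25.3 on BDL day 14. It was thus 7.89-fold lower at BDL day 3 than at day 0 (log2 ratio -2.98 ± 0.84 SE) and 8.61-fold higher at BDL day 14 than at BDL day 3 (3.11 ± 0.79), while day 0 and BDL day 14 differed by less than the SE (0.13 ± 0.79). *Itga2*, the other collagen receptor tested, was low in every group, at 2.56, 0.646 and 1.68, and none of its ratios passed 2 SE. *Itga10* and *Itga11*, the latter known from fibroblasts, did not reach the minimum. *Itga11* was listed with 1.55 for day 0 and lay at the floor on both BDL days, at least 5.32-fold and at least 6.35-fold lower. The highest library held 62.6% of the summed day 0 signal of *Itga11*, and without it the bounds were 2.98-fold and 3.57-fold.

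The laminin receptors split. *Itga6* (chr2:71745616-71858416), whose α6 chain is found on epithelium, endothelium and platelets, had means of 8.52 and 8.28 in the first 2 groups and of 79.1 on BDL day 14. Day 0 and BDL day 3 lay within 1 SE of each other (log2 ratio -0.04 ± 0.57), and BDL day 14 was 9.28-fold above day 0 (3.21 ± 0.53) and 9.55-fold above BDL day 3 (3.26 ± 0.53). Its highest library was a BDL day 14 library with 30.4% of that group's sum of 4 libraries, and without it the ratio to day 0 was 3.11. *Itga7*, the laminin receptor of muscle and of smooth muscle, went the other way. Its day 0 mean was 5.83, its BDL day 3 mean lay at the floor (at least 20-fold lower), and its BDL day 14 mean of 0.899 was 6.49-fold below day 0 (-2.70 ± 0.54). The highest day 0 library held 50.3% of that group's *Itga7*. *Itga3* was at 7.92, 2.61 and 5.00 and *Itgb4*, the β partner of α6 in hemidesmosomes, at 2.66, 1.15 and 0.773. Neither gene passed 2 SE in any comparison, and 1 day 0 library held 65.3% of the *Itgb4* signal of its group. At BDL day 14, when *Itga6* was highest, *Itgb4* was at its lowest mean.

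Of the RGD-binding α chains, *Itga8* (chr2:12106632-12301922), a receptor of stellate and smooth muscle cells, had the deepest BDL day 3 trough among members above the floor. Its means were 16.7, 0.650 and 11.1. The BDL day 3 level was 25.7-fold below day 0 (log2 ratio -4.68 ± 1.14) and BDL day 14 was 17.1-fold above BDL day 3 (4.09 ± 1.06), whereas BDL day 14 and day 0 differed by less than the SE (-0.59 ± 1.06). *Itga5*, the fibronectin receptor chain, was at 20.8, 31.9 and 31.9, just above 1.5-fold on both BDL days and within 2 SE (0.62 ± 0.56 and 0.62 ± 0.53). *Itgav* was nearly level, at 30.5, 36.9 and 38.3. *Itga2b*, the αIIb chain of platelets and megakaryocytes, was at 4.26, 1.46 and 11.4. It was 7.81-fold higher at BDL day 14 than at BDL day 3 (2.97 ± 1.28). A single BDL day 14 library held 48.3% of the group's *Itga2b*, and without it the log2 ratio was 2.43 to BDL day 3 and 0.88 to day 0.

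The β chains that pair with αv differed by more than their time course. *Itgb5* was at 226, 307 and 273 and passed 1.5-fold in no comparison. Per kb of exon it held 97.3% of the summed level of *Itgb3*, *Itgb5*, *Itgb6* and *Itgb8* in the day 0 group, then 99.5% and 95.6%. *Itgb3*, which pairs with αv and with αIIb, was at 8.71, 1.74 and 20.1. It was 5.01-fold lower at BDL day 3 than at day 0 (log2 ratio -2.32 ± 0.94) and 11.6-fold higher at BDL day 14 than at BDL day 3 (3.53 ± 0.88). Against day 0 the BDL day 14 ratio of 1.21 ± 0.88 did not pass 2 SE. The highest BDL day 14 library had 43.5% of that group's *Itgb3*, and without it this ratio was 0.80. Of 5 platelet markers only 2 passed the minimum, and the defining ones were near the floor. *Gp1ba* was at 0.961, 0.0729 and 0.233 and *Gp9* at 0.668, 1.27 and 0.319. *Pf4*, a platelet chemokine that macrophages also make, was at 37.2, 82.7 and 221 and made up most of the list's sums of 41.8, 85.8 and 223. Whether platelets had a part in the *Itga2b* and *Itgb3* levels was not tested. *Itgb8*, whose product with αv activates latent TGF-β, had means of 2.49, 0.396 and 0.399 (-2.65 ± 1.20 and -2.64 ± 1.12), with 49.5% of the day 0 signal in 1 library. *Itgb6*, the epithelial αv partner, did not reach the minimum. It lay at the floor in the day 0 group (0.475) and had 0.772 and 0.667 on the BDL days. The log2 ratios of these means to day 0 were 0.70 ± 1.18 and 0.49 ± 1.10, within 1 SE, so no direction can be read for *Itgb6*.

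*Itgb1*, the β chain shared by most matrix receptors, was at 181, 250 and 263. Against day 0 the log2 ratios were 0.47 ± 0.16 and 0.54 ± 0.15, which is more than 2 SE and less than 1.5-fold. Its partner *Itga4*, of the VCAM1 receptor, was at 29.0, 27.9 and 58.5, level at BDL day 3 (-0.06 ± 0.33) and 2.02-fold above day 0 at BDL day 14 (SE of the log2 ratio 0.31). *Itga9*, which binds VCAM1, osteopontin and tenascin, was highest at BDL day 3, with means of 99, 214 and 86.5. It was 2.16-fold above day 0 there (1.11 ± 0.27) and BDL day 14 was 2.47-fold below BDL day 3 (-1.31 ± 0.26). The α4 and α9 genes, whose products are alike in sequence and bind some of the same ligands, were thus highest at different days.

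The leukocyte integrins differed between the groups in level and in composition. *Itgb2* (chr10:77530252-77565708), the common β2 chain, had means of 168, 445 and 369. It was 2.65-fold above day 0 at BDL day 3 (log2 ratio 1.40 ± 0.31) and 2.20-fold above it at BDL day 14 (1.14 ± 0.29). Among its partners, *Itgam* (chr7:128062640-128118491), the αM chain of monocytes, macrophages and neutrophils, was at 44.4, 99.5 and 220. Its BDL day 14 mean was 4.96-fold above day 0 (2.31 ± 0.59), and the BDL day 3 ratio of 1.16 ± 0.63 did not pass 2 SE. *Itgax* (chr7:128129547-128150657), the αX chain of dendritic cells and some macrophages, was at 6.71, 27.0 and 65.5, 4.02-fold above day 0 at BDL day 3 (2.01 ± 0.86) and 9.76-fold at BDL day 14 (3.29 ± 0.81). In each of these α genes 1 BDL day 14 library stood highest, with 38.5% of the group's *Itgam* and 40.1% of its *Itgax*, and without it the ratios to day 0 were 2.02 and 2.96.

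*Itgal* (chr7:127296260-127335138), the αL chain of LFA-1 used by lymphocytes and other leukocytes, was lowest at BDL day 14. Its means were 246, 339 and 131, 1.88-fold below day 0 at BDL day 14 (log2 ratio -0.91 ± 0.35) and 2.59-fold below BDL day 3 (-1.37 ± 0.35). Per kb of exon, *Itgal* made up 78.5% of the β2 partner α chains in the day 0 group, 67.0% on BDL day 3 and 25.8% on BDL day 14. *Itgam* made up 18.5%, 25.7% and 56.6% and *Itgax* 2.93%, 7.29% and 17.6%, so that the ratio of *Itgam* to *Itgal* per kb was 0.236, 0.384 and 2.20. *Itgal* led the β2 partners on day 0 and BDL day 3 and *Itgam* on BDL day 14. Among all 18 α chains the order was the same, with *Itgal* first at 47.5% and 43.4% of the summed level per kb and *Itgam* first at 37.1% on BDL day 14. Among the β chains per kb, *Itgb5* led on day 0 with 36.6%, ahead of *Itgb2* with 31.7% and *Itgb1* with 25.5%, and *Itgb2* led on the BDL days with 48.9% and 43.4%. The day 0 order of *Itgb5* and *Itgb2* rests on a gap smaller than the spread between libraries of either gene. *Itgad* was at the floor in all 3 groups. The genes *Itgal*, *Itgam*, *Itgax* and *Itgad* lie on the plus strand of chromosome 7, and *Itgax* starts 11056 bases beyond the end of *Itgam*. The gene *Gm49368* shares 68.7% of the exon bases of *Itgam* on the same strand and had a mean of 1.81 over all libraries, and how reads in the shared bases were assigned is not stated. The T and NK cell markers, whose cells use αL, summed to 162, 53.2 and 13.6, with 9 of 10 lower at BDL day 3 and all 10 lower at BDL day 14 than at day 0. In 9 of the 10 a day 0 library stood highest, with 34.9% to 88.6% of the group's signal. When each gene's highest library was left out, the day 0 sum was 90.2, and 7 of the 10 were lower and 2 (*Cd3d* and *Klrb1c*) higher at BDL day 3. B cell markers, whose cells use αL and β7, summed to 372, 87.2 and 55.5 with 6 of 6 lower on both BDL days, and to 228 on day 0 without the highest libraries. Neutrophil markers, whose cells carry αM, summed to 529, 255 and 167, and dendritic cell markers to 39.8, 13.7 and 21.9. Without each gene's highest library the dendritic cell sums were 29.8, 13.7 and 14.5. The part of these cells in the *Itgal*, *Itgam* and *Itgax* levels was not tested.

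*Itgae* and *Itgb7* encode αE and β7, which pair on intraepithelial lymphocytes and some dendritic cells. *Itgb7* was at 23.4, 12.0 and 34.7, 1.95-fold below day 0 at BDL day 3 (log2 ratio -0.96 ± 0.45) and 2.89-fold higher at BDL day 14 than at BDL day 3 (1.53 ± 0.42). *Itgae* was at 3.64, 0.703 and 1.43, with 62.6% of the day 0 signal in 1 library, and none of its ratios passed 2 SE. The β7 chain also pairs with α4, and both *Itgb7* and *Itga4* had their highest mean at BDL day 14. Against day 0, the BDL day 14 ratio of *Itgb7* (0.57 ± 0.42) passed neither 1.5-fold nor 2 SE. *Itgb2l*, a neutrophil relative of *Itgb2*, had a mean of 0.846 on day 0 and lay at the floor afterwards, with 59.1% of the day 0 signal in 1 library and a day 0 mean near the floor (0.519) without it.

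**Figure D3:**
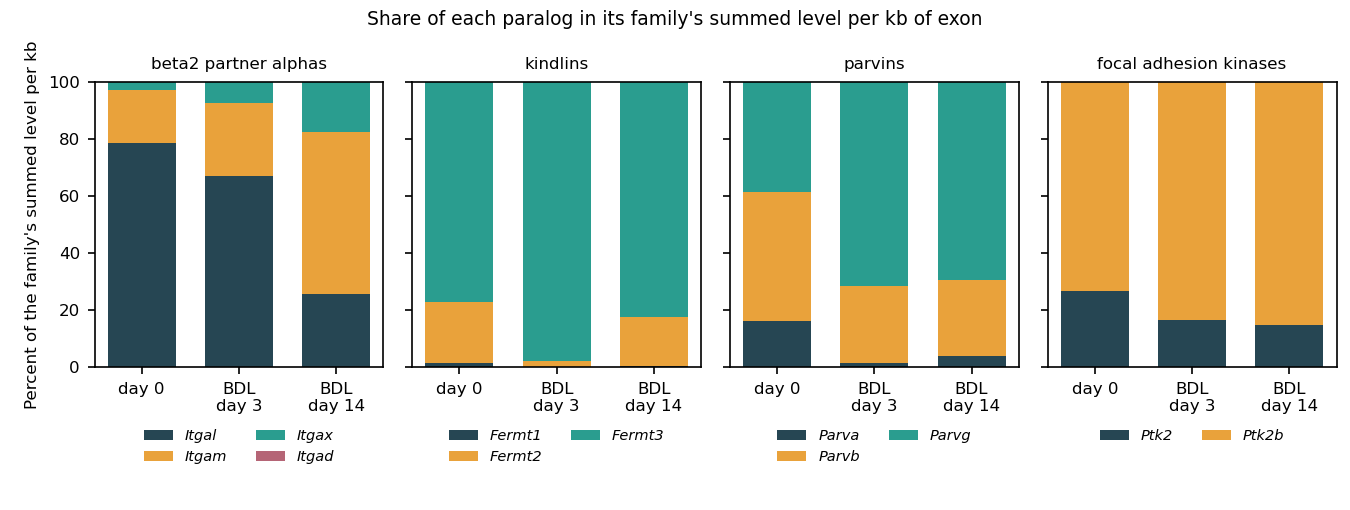
Stacked bars of the share, in percent, that each gene has in its family's summed level per kb of exon in each group (β2 partner α chains, kindlins, parvins and focal adhesion kinases). Itgam takes the larger share of the β2 partners at BDL day 14 (56.6%), Fermt3 makes up 97.9% of the kindlins at BDL day 3, and Parvg goes from 38.5% of the parvins at day 0 to 71.5% at BDL day 3.

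Inside the cell, the blood cell and the broadly used paralogs of the same adaptor diverged. *Fermt3*, kindlin-3, was at 160, 258 and 154, 1.61-fold above day 0 at BDL day 3 (log2 ratio 0.69 ± 0.20, and 0.30 under quantile normalization, below 1.5-fold) and level with day 0 at BDL day 14 (-0.06 ± 0.19). *Fermt2* (chr14:45458795-45530118), kindlin-2, was at 39.8, 4.79 and 28.6, 8.31-fold below day 0 at BDL day 3 (-3.05 ± 0.61) and 5.97-fold higher at BDL day 14 than at BDL day 3 (2.58 ± 0.57). The epithelial *Fermt1* had 2.78 and 1.05 on day 0 and BDL day 14 and lay at the floor between them, at least 9.53-fold lower than on day 0. Its highest day 0 library held 61.0% of that group's signal, and without it the bound was 5.57-fold. Per kb, the ratio of *Fermt3* to *Fermt2* was 3.61, 48.3 and 4.83. The kindlin-3 share was thus near complete at BDL day 3 (97.9%), against 77.2% on day 0 and 82.4% on BDL day 14.

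*Tln1*, the main talin, was at 305, 327 and 206, with no ratio above 2 SE. *Tln2*, the talin of muscle and brain, was at 4.06, 0.381 and 1.64, and 75.0% of its day 0 signal came from 1 library. Without that library the log2 ratio at BDL day 3 against day 0 was -2.0 in place of -3.41, and that at BDL day 14 against day 0 was 0.11 in place of -1.31. No direction can be read for *Tln2* at BDL day 14. *Tln1* held at least 99.3% of the summed talin level per kb in each group.

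The ILK complex joins integrin-linked kinase (*Ilk*), PINCH-1 (*Lims1*) and a parvin. *Ilk* was at 97.4, 129 and 127 and passed 1.5-fold in no comparison. The *Taf10* gene on the opposite strand shares 76.8% of the exon bases of *Ilk*, and whether counting used strand is not stated. *Lims1* was level at BDL day 3 and higher at BDL day 14, at 26.1, 23.4 and 50.7 (log2 ratio 0.96 ± 0.24 to day 0 and 1.12 ± 0.24 to BDL day 3). The parvins separated as the kindlins did. *Parvg* (chr15:84324026-84342978), γ-parvin, was at 18.5, 72.9 and 70.4, 3.94-fold above day 0 at BDL day 3 (1.98 ± 0.36) and 3.81-fold above it at BDL day 14 (1.93 ± 0.34). *Parva*, α-parvin, was at 25.6, 5.29 and 13.4, 4.84-fold below day 0 at BDL day 3 (-2.28 ± 0.61) and 2.53-fold higher at BDL day 14 than at BDL day 3 (1.34 ± 0.57). *Parvb* was at 31.1, 39.3 and 38.2, within 1 SE in every comparison. Per kb the ratio of *Parvg* to *Parva* was 2.38, 45.3 and 17.3, so unlike the kindlin ratio it was still well above day 0 at BDL day 14. *Parvb* led the parvins at day 0 with 45.3% per kb, ahead of *Parvg* with 38.5%, a gap smaller than the spread of *Parvb* between libraries (0.89 on the log2 scale), and *Parvg* led on both BDL days with 71.5% and 69.6%.

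The kinases differed less between the groups. *Ptk2*, focal adhesion kinase, was at 28.4, 23.3 and 17.4, and *Ptk2b*, its blood cell relative Pyk2, at 49.1, 73.9 and 62.4. *Ptk2b* at BDL day 3 was 1.51-fold above day 0 (log2 ratio 0.59 ± 0.29), and *Ptk2* at BDL day 14 was 1.63-fold below it (-0.71 ± 0.38, within 2 SE). The ratio of *Ptk2b* to *Ptk2* per kb was 2.76, 5.06 and 5.72. Among the scaffolds, *Vcl* (chr14:20929398-21033676), vinculin, which ties talin to actin, was at 22.6, 4.37 and 16.7. It was 5.17-fold below day 0 at BDL day 3 (-2.37 ± 0.46) and 3.82-fold higher at BDL day 14 than at BDL day 3 (1.93 ± 0.43). *Ap3m1* on the opposite strand shares 25.5% of the exon bases of *Vcl*. *Pxn*, paxillin, was at 63.3, 78.3 and 64.6, and *Zyx*, zyxin, at 96.6, 156 and 100, neither past 2 SE in any comparison.

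**Figure D4:**
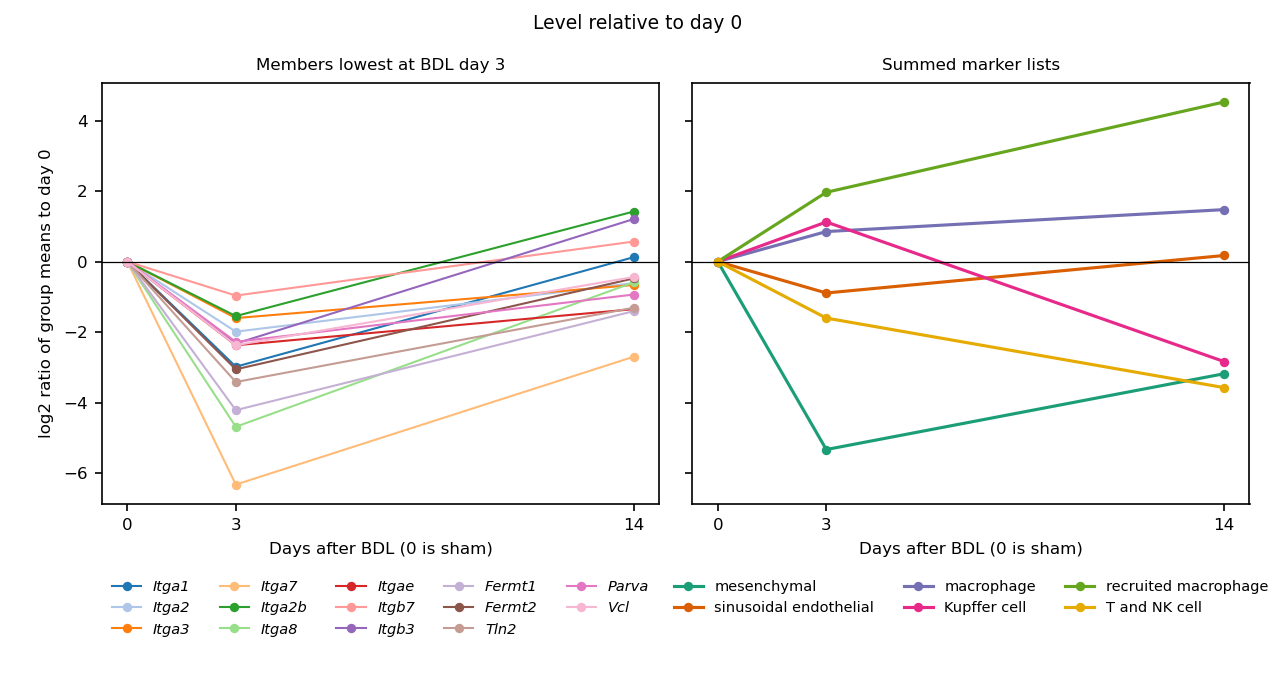
Log2 ratio of each group mean to day 0 against days after BDL, for the 14 members that were lower at BDL day 3 than in both other groups (left) and for the summed means of 6 marker lists (right); the BDL day 3 points of Itga7 and Fermt1 are at the floor. The mesenchymal list is lowest at BDL day 3 and still far below day 0 at BDL day 14, while Itga1, Fermt2 and Vcl end within 0.50 of day 0; the macrophage list exceeds its BDL day 3 sum at BDL day 14 through Lyz2.

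The 14 genes with a BDL day 3 trough did not all end alike. Relative to day 0, the BDL day 14 log2 ratio of *Itga7* was -2.70 ± 0.54, the only member of the 14 past 2 SE in that comparison. The spread behind this SE (0.71 on the log2 scale) was the lowest of the 10 tested members with a mean under 10. It was not checked for genes with a mean at the floor, as *Itga7* had at BDL day 3. The other 13 ranged from -1.41 (*Fermt1*), -1.35 (*Itgae*), -1.31 (*Tln2*) and -0.93 (*Parva*) through -0.59 (*Itga8*), -0.48 (*Fermt2*), -0.44 (*Vcl*) and 0.13 (*Itga1*) to 1.21 (*Itgb3*) and 1.42 (*Itga2b*). Both ends of this range lean on single libraries. Without the highest day 0 library the ratios of *Fermt1*, *Itgae* and *Tln2* were -0.63, -0.52 and 0.11. Without the highest BDL day 14 library those of *Itgb3* and *Itga2b* were 0.80 and 0.88. The ratio of the summed mesenchymal markers was -3.18 and that of the summed sinusoidal endothelial markers 0.17. At BDL day 3 the same sums stood at -5.33 and -0.89. Abundance also differed between the members. Of the 37 members 10 had a mean under 10 over all libraries, and 9 of these 10 had their highest group mean at day 0. The median spread between libraries was 1.60 on the log2 scale in these 10 and 0.55 in the 27 more abundant ones, so the ratios of the low genes are the least certain.

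The ligands of these receptors had a lower BDL day 3 level as well. Of 36 ligand genes tested, 30 were lower (83.3%, against 29.2% of all genes) and 2 higher (5.56%, against 19.2%) at BDL day 3 than at day 0. By BDL day 14, 22 were lower (61.1%, against 28.8%) and 5 higher (13.9%, against 21.2%) than at day 0. Between the BDL days 23 were higher at BDL day 14 (63.9%, against 21.2%) and 6 lower (16.7%, against 19.7%). Their median log2 ratios were -2.12, -1.23 and 1.67. Of these ligands *Col1a1*, *Col1a2* and *Col3a1* are also in the mesenchymal list. *Spp1*, osteopontin, a ligand of αv, α4 and α9 integrins, was at 459, 175 and 792 (-1.39 ± 0.36 at BDL day 3 and 0.79 ± 0.33 at BDL day 14 against day 0). *Fn1*, fibronectin, was at 137, 62.3 and 356. The BDL day 14 library with the most *Fn1* held 45.6% of that group's sum. *Col3a1*, a fibrillar collagen, was at 422, 4.47 and 32.3. *Vcam1*, bound by α4β1 and α9β1, was highest at BDL day 3 with 287, 784 and 209 (1.45 ± 0.51 at BDL day 3 against day 0), the day on which *Itga9* was also highest. *Icam1*, the ligand of LFA-1 and Mac-1, was at 121, 122 and 48.0, lower at BDL day 14 (-1.33 ± 0.32). *Tgfb1*, whose latent form αv integrins bind, was at 73.4, 117 and 90.2, within 2 SE.

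Among 48 further adhesion adaptors, the shares of lower genes were nearer to those of all genes than among the ligands. At BDL day 3, 6 were above day 0 (12.5%, against 19.2%) and 17 below it (35.4%, against 29.2%). At BDL day 14, 5 were above (10.4%, against 21.2%) and 17 below (35.4%, against 28.8%). Between the BDL days 17 were higher at BDL day 14 (35.4%, against 21.2%) and 9 lower (18.8%, against 19.7%). The median log2 ratios were -0.29, -0.17 and 0.18. *Rap1b*, the small GTPase that brings talin to integrins, was at 231, 347 and 319, and *Skap2*, a leukocyte adaptor in that step, at 69.0, 101 and 113. Several actin-binding adaptors were highest at BDL day 3 and lowest at BDL day 14. *Csrp1* was at 124, 243 and 68.7, *Vasp* at 111, 173 and 84.9, and *Evl* at 110, 143 and 55.5. *Actn1*, the α-actinin that crosslinks actin at adhesions, was at 136, 152 and 27.1, a log2 ratio of -2.33 ± 0.28 at BDL day 14 against day 0.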

How the data were processed

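GFP(+) cells of 12 mice were sequenced as mRNA. The authors trimmed the reads, aligned them with STAR to mm10, counted them on GENCODE M18 genes and normalized by the upper quartile method in Partek Flow. The submitters' processing notes give STAR 2.6.1d, and the study's methods give another STAR release. The deposited table holds signal values, which are group means of normalized counts (least squares means, by the authors), the arithmetic and geometric mean over all libraries, and the highest library. It has 0 columns per library. It also holds the authors' p-values, FDR, ratios, log2 ratios, fold changes and confidence limits, which were not used. The authors left out 2 BDL day 14 libraries for too few reads. Group sizes of 3, 3 and 4 gave back the overall mean to 0.469% (the percentile 99 of the deviation), and the next best sizes to 2.70%.

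Ratios, shares, counts and the library spread were calculated from these means in Python 3.11.15 with pandas 2.3.3 and numpy 2.4.6. Figures were drawn with matplotlib 3.10.9. The spread was estimated from the gap between the logarithm of the group means and that of the geometric mean. This step was chosen after the columns were seen. It was tested on simulated data of 12889 genes with equal spread in all groups and no floor. Genes entered with at least 10 summed normalized counts and were counted at a fold above 1.5. Levels per kb used all GENCODE M21 exon bases of a gene. The authors' end positions lie 1 base beyond those of GENCODE, which are printed. A gene's highest library was assigned to the group that alone could hold it. All members are named by role. Of the ligand and adaptor lists, the up to 6 most abundant genes past the fold against day 0 are named. The members and lists were chosen with earlier results of these data known. Samples are separate mice by the study's description. The alternatives were no minimum, a mean of at least 10, a fold above 2, median-ratio scaling, quantile normalization, a pseudocount of 1, the highest library left out and, chosen after seeing the data, the 2 SE rule, means raised to the floor, the lists without each gene's highest library and the macrophage list without *Lyz2*.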

Additional observations from a re-analysis of the deposited data

How the results depend on the processing

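No paired analysis was possible because the table holds only group means, and for the same reason no replicate could be left out in turn. Median-ratio scaling left each count of members within 1.5 times and the direction of each member's ratio as reported. Counting only genes with a mean of at least 10 left 27 members. It gave 6 lower at BDL day 3 against day 0 (against 15.03% of all such genes). At BDL day 14 against day 0 it gave 3 lower (against 17.35%). Between the BDL days 11 were higher at BDL day 14 (against 14.13%), and the median was 0.00. With no minimum that median was 0.0323 over 42 members, so the value of 0.94 depends on the genes kept. A fold above 2 gave 5 higher at BDL day 3 against day 0 (against 7.45% of all genes). It gave 6 lower at BDL day 14 against day 0 (against 19.57%) and 2 lower between the BDL days (against 10.06%). Quantile normalization moved the median of all genes from -0.02 to 0.11 at BDL day 3 against day 0. It gave 5 members higher there (against 26.24% of all genes) and 3 lower between the BDL days (against 19.54%). Adding the 2 SE rule gave 3 lower at BDL day 14 against day 0 (against 16.76%) and 3 lower between the BDL days (against 10.61%). Of 37 members, median-ratio scaling gave 10 lower at BDL day 14 than at day 0 (against 27.95%). A pseudocount of 1 gave 9 (against 25.91%) and leaving out the highest library 10 (against 27.72%). With these settings, the minimum mean, the higher fold or 2 SE, the share of members lower there was below that of all genes. It stayed above with no minimum (15 of 42, against 33.63%) and under quantile normalization (9 of 37, against 23.38%). Under quantile normalization the share of members higher at BDL day 3 was below that of all genes. In the main counts both shares were above those of all genes. For single genes, the BDL day 14 against day 0 log2 ratio turned for *Itga2* under quantile normalization (0.19) and for *Tln2* without its highest library (0.11). Under quantile normalization the ratios of *Itgb1* and *Itgb5* at BDL day 3 against day 0 were 0.07 and 0.02, and that of *Fermt3* was 0.30, which ends its 1.5-fold call. A pseudocount of 1 moved 5 ratios, all of *Itga7* and *Fermt1*, and kept their direction. The cause of these differences was not tested. With unknown depth, no counting error could be given.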

Other observations

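Among the further adhesion adaptors, genes chosen after their values were seen had the BDL day 3 trough of *Vcl* and *Fermt2*. *Tns1*, a tensin that binds β integrin tails and actin, was at 69.5, 10.8 and 51.5 at day 0, BDL day 3 and BDL day 14, *Tns2* at 26.4, 3.43 and 13.1, and *Sorbs3*, the vinculin partner vinexin, at 31.8, 6.40 and 28.0. *Tns3* was at 35.6, 24.1 and 45.2. The blood cell adaptor *Lpxn*, leupaxin, a relative of paxillin, was at 49.6, 74.3 and 78.1, with no ratio over 2 SE. Among the ligands, *Thbs1*, thrombospondin-1, was at 10.7, 14.4 and 89.3, and *Npnt*, a ligand of α8β1, had a day 0 mean of 10.1 and lay at the floor on both BDL days. A single day 0 library held 79.2% of that *Npnt* signal. These levels are the authors' means and were not tested.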
